A study of Mus musculus with 4 samples.

Results

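Bcl11a-/- and WT multipotent progenitors (MPPs) were compared on 1 oligonucleotide array each, which are 2 of the 4 arrays of the series. The comparison covers every gene that a probe set names alone, 19938 genes in all, of which 9804 reached a signal of 6 on the log2 scale in WT or Bcl11a-/- MPPs. The value given for each gene is its log2 signal, the mean of its probe sets where it has several, and the difference is the Bcl11a-/- signal minus the WT signal. Both arrays measured donor-derived cells from the bone marrow (BM) of fetal liver chimeras. B6.SJL recipients had received 1200 rad and an injection of WT or Bcl11a-/- fetal liver cells, and the labels place the harvest at 4 weeks. Cells of Bcl11a-/- donors lacked the first exon of Bcl11a, WT donor cells had it intact, and the recipients that housed either carried no Bcl11a mutation. MPPs were sorted as CD150-negative cells of the lineage-negative Sca-1+ c-Kit+ (LSK) fraction and were pooled by donor genotype, so that a signal is an average over mice and cells. The other arrays hold granulocyte-macrophage progenitors (GMPs) of the same chimeras, 1 WT and 1 Bcl11a-/-, and their values are given beside those of the MPPs, with which they share no array. With 1 array for each condition there was no replicate, and no test, standard deviation or p-value could be given for any difference. Precision is limited by that number, and a difference between arrays holds the difference between the pools and preparations as well as that between the genotypes.

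Bcl11a encodes a zinc finger transcription factor that recruits corepressor complexes, is required for B cell development, and silences embryonic and fetal globin genes in erythroid cells. MPPs have lost long-term self-renewal but still give rise to lymphoid, myeloid, erythroid and megakaryocytic cells, and they carry low levels of transcripts of several of these lineages at once. Those with high Flt3 are biased toward lymphoid and dendritic cell fates. In a bulk sample, fewer cells of a type and less RNA per cell cannot be told apart.

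The Bcl11a-/- MPP array stood apart from the other arrays among bright genes. Over the 2886 genes with a mean MPP signal of at least 8, Pearson's r across genes was 0.858 between the MPP arrays, 0.881 between the WT MPP and WT GMP arrays, 0.711 between the Bcl11a-/- MPP and WT GMP arrays and 0.980 between the GMP arrays. Over all 19938 genes the coefficients in the same order were 0.976, 0.975, 0.954 and 0.991, so that the MPP arrays were then no farther apart than the WT arrays. The bright genes were chosen by their mean on the MPP arrays, and that choice can itself change the coefficients. Genes are not independent replicates, and these coefficients only describe the arrays. The MPP comparison has no other Bcl11a-/- array and cannot be made without this one. The median difference over all genes was 0.05 in MPPs and 0.01 in GMPs, and 95% of genes lay within 0.83 of 0 in MPPs and within 0.53 in GMPs.

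In Bcl11a-/- MPPs, 181 genes were greater than 2-fold higher (0.908% of all genes) and 402 were greater than 2-fold lower (2.02%). Among the 9804 genes that reached a signal of 6, 120 were higher (1.22%) and 368 were lower (3.75%). In GMPs, 72 genes were higher (0.361%) and 56 were lower (0.281%). Of the 402 lower genes, 356 had their lowest signal of all arrays in Bcl11a-/- MPPs, and 271 of these did not have their highest signal in WT MPPs. Their typical member was therefore as bright or brighter in GMPs. For the 368 lower genes with a signal of at least 6, the median was 8.46 in WT MPPs, 7.10 in Bcl11a-/- MPPs, and 9.03 in GMPs of either genotype. Of the 402 genes, 19 were also greater than 2-fold lower in GMPs, which is 4.73% of the genes lower in MPPs and 33.9% of those lower in GMPs. In GMPs 355 of the 402 lay within 1.5-fold, against 96.5% of all genes. Of the 181 higher genes, 162 had their highest signal in Bcl11a-/- MPPs, and 15 were also higher in GMPs. Both sets were chosen by the Bcl11a-/- MPP signal against that of WT MPPs. The counts of 356 lowest and 162 highest signals follow in part from that choice.

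Bcl11a and genes of the progenitor surface were read on both MPP arrays. Bcl11a itself read 9.89 in WT MPPs and 8.64 in Bcl11a-/- MPPs, a 2.39-fold difference, and 8.60 and 7.77 in the GMPs. The deleted part is the first exon, and the positions of the probes were not analysed here, so that this residual signal checks the label only in part. Flt3, the receptor for Flt3 ligand, read 9.31 and 7.71, and Il7r, the receptor chain for interleukin-7, read 7.19 and 4.39. Kit read 9.49 and 9.62, Cd34 was 1.40-fold higher from 10.52 in WT MPPs, and Cd48 read 10.01 and 10.04, so that none of these stem and progenitor surface genes differed greater than 2-fold. Slamf1, which encodes CD150, was dim on both arrays at 4.34 and 4.87.

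The largest gains belonged to genes of many different functions. Pilra, an inhibitory immunoglobulin-like receptor of myeloid cells, read 7.63 in WT MPPs and 9.54 in Bcl11a-/- MPPs and 7.87 and 7.75 in the GMPs. It was 3.74-fold higher in Bcl11a-/- MPPs and differed little between the GMPs. Fxyd1, a regulator of the sodium pump, read 5.52 and 7.84 in MPPs and 5.33 and 5.91 in GMPs. Mc5r, a melanocortin receptor, read 7.72 and 9.43 in MPPs and 6.64 and 7.69 in GMPs, which is greater than 2-fold higher in both populations. Anpep, the myeloid surface peptidase CD13, read 5.51 and 7.24 in MPPs and 4.86 and 5.55 in GMPs. Of the 20 largest gains, 12 started from a signal under 5.78, the median over all genes on the WT MPP array. Hba-x, the embryonic zeta globin gene, was the largest, at 5.99 and 9.16 in MPPs and 5.52 and 9.30 in GMPs.

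Many of the largest losses outside the B lineage were in genes used by nearly every cell. Pfdn5, a subunit of the prefoldin chaperone, read 10.96 in WT MPPs and 7.77 in Bcl11a-/- MPPs, and 10.93 on both GMP arrays. Cox4i1, a subunit of cytochrome c oxidase, read 11.56 and 8.83 in MPPs and 11.70 and 11.61 in GMPs. Ndufs5, an accessory subunit of respiratory complex I, read 9.42 and 5.57 in MPPs and 9.96 and 9.53 in GMPs. In each of these genes the Bcl11a-/- MPP array alone was low, and the other arrays lay close together. Emp1, a membrane protein with several transmembrane spans, had another pattern, at 7.71 and 5.05 in MPPs and 5.37 and 4.83 in GMPs. WT MPPs alone were high for Emp1. Wfdc17, a small secreted protein with a whey acidic domain, read 8.22 and 5.69 in MPPs and 6.77 and 5.85 in GMPs. Wfdc17 was thus brightest in WT MPPs, and it was also 1.89-fold lower in Bcl11a-/- than in WT GMPs.

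**Figure D1:**
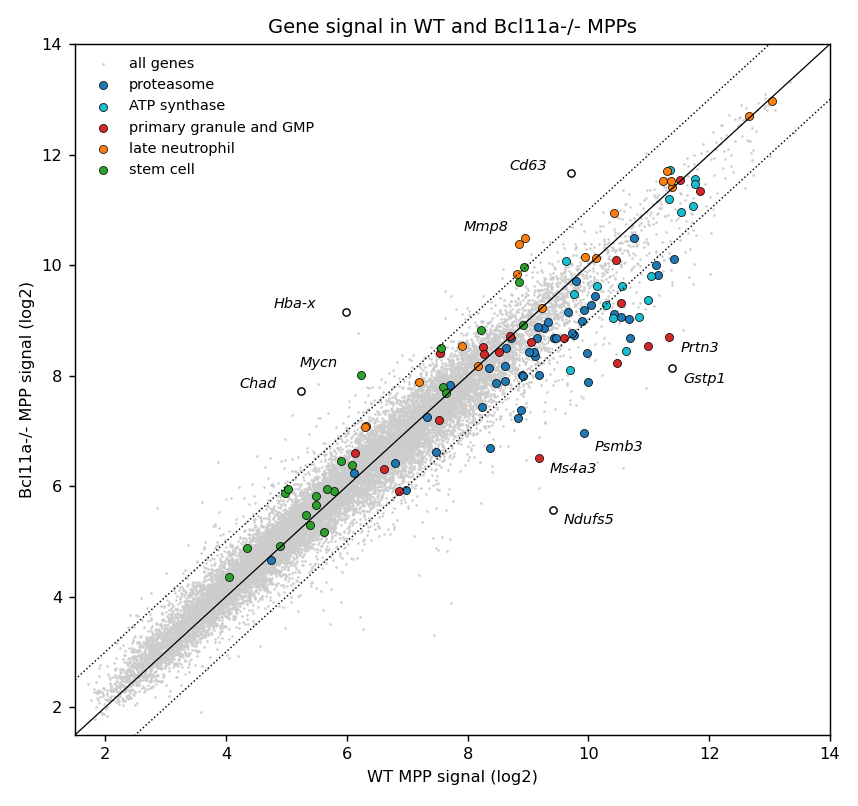
Log2 signal of each gene in WT MPPs (horizontal axis) and Bcl11a-/- MPPs (vertical axis), 1 array each, with 5 gene lists in color. Open circles mark genes named for their difference, the solid line marks equal signals and the dotted lines mark 2-fold; 46 of the 48 proteasome genes lie below the solid line.

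The promoters of the genes with the largest differences were searched for TGACCA, the motif that the zinc fingers of BCL11A bind in globin promoters, on both strands. The 250 bases before the first listed start of each gene were taken from RefSeq, on build GRCm38.p6. The motif stood in 4 of the 18 promoters found for the 20 largest gains and in 1 of the 18 found for the 20 largest losses. Of the genes with a match, Hba-x, Kcne3 and Myom1 read 5.99, 4.65 and 4.44 in WT MPPs and reached 6 in Bcl11a-/- MPPs alone. Vpreb3, the match among the losses, read 5.96 in Bcl11a-/- MPPs and reached 6 in WT MPPs alone. Membership thus depended in part on the difference itself, so that these counts cannot compare gains with losses. The filtered sets below carry the same limit. Over all 27025 promoters of this length, 11.5% held it. Among genes with a signal of at least 6, it stood in 14 of 89 promoters of higher genes (15.7%), in 31 of 296 of lower genes (10.5%) and in 749 of 7779 overall (9.63%). Of 40 proteasome promoters, 4 held the motif (10%), close to that share of 9.63%. A match is a description of the letters and not a binding site. The 4 promoters among the largest gains, that of the B lineage gene Vpreb3 among the largest losses, and that of the proteasome gene Psma6, which was lower in Bcl11a-/- MPPs and holds the motif in 2 places, are shown 5′ to 3′ with the match in capitals. They lie at chr11:32276350-32276599 (plus strand) for Hba-x, chr5:137836279-137836528 (minus strand) for Pilra, chr7:100176420-100176669 (plus strand) for Kcne3, chr17:71019307-71019556 (plus strand) for Myom1, chr10:75948050-75948299 (plus strand) for Vpreb3 and chr12:55383972-55384221 (plus strand) for Psma6.
Hba-x: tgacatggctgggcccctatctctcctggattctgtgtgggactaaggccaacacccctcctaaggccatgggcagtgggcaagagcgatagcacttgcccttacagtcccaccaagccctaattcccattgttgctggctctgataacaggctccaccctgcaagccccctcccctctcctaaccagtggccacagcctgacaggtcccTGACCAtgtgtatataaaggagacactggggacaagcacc
Pilra: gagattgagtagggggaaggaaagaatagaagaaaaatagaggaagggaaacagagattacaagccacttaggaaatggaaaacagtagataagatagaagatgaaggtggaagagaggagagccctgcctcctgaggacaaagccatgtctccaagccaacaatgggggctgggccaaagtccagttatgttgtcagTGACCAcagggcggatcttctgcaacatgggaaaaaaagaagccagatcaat
Kcne3: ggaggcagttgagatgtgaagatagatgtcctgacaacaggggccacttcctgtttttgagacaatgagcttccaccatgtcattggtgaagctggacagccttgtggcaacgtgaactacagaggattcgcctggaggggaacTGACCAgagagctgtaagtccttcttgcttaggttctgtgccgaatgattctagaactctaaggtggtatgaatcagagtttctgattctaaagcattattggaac
Myom1: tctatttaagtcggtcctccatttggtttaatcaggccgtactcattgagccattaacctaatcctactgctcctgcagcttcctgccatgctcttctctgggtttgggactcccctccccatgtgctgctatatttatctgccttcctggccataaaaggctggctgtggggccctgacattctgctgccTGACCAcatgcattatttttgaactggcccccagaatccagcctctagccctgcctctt
Vpreb3: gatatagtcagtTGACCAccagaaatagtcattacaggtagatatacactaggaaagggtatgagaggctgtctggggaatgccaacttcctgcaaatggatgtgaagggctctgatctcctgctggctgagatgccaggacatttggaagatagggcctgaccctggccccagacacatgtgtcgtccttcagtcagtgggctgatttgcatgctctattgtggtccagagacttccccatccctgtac
Psma6: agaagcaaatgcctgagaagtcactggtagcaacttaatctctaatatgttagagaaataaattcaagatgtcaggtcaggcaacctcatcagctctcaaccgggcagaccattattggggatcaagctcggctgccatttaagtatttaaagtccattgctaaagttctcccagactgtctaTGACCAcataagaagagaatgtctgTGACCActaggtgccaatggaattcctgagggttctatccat

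Proteasome genes were lower as a group in Bcl11a-/- MPPs. The proteasome degrades ubiquitin-tagged proteins in a core of alpha and beta subunits that is capped by a regulatory particle of ATPase and non-ATPase subunits. Of 48 measured genes, 46 had a lower value in Bcl11a-/- MPPs, 16 were greater than 2-fold lower and none was greater than 2-fold higher, with a median difference of -0.77. The median over all genes with a signal of at least 6 was -0.04, and that of the same 48 genes in GMPs was -0.06. Of the 9804 genes with a signal of at least 6, 4471 had a higher value in Bcl11a-/- MPPs. For 45 of the 48 genes the Bcl11a-/- MPP array was the lowest of all. It was also the lowest for 37 of 52 DNA replication genes and 49 of 76 mitosis genes, and for 1 of 22 stem cell genes. The share over all genes was not counted. The core was lower than the cap, with a median of -1.39 over the 8 alpha subunits, -0.97 over the 11 beta subunits, -0.77 over the 6 ATPases and -0.62 over the 14 non-ATPase subunits. Psma4, an alpha subunit, read 9.99 in WT MPPs, 7.88 in Bcl11a-/- MPPs, 10.53 in WT GMPs and 10.44 in Bcl11a-/- GMPs. Psmb4, a beta subunit, read 10.68, 8.67, 10.82 and 10.87 in the same order, and Psmb3, another, read 9.92, 6.97, 10.54 and 10.75. These core subunits were 4.31-fold, 4.03-fold and 7.75-fold lower, respectively, and 2 probe sets of Psmb3 gave differences of -3.41 and -2.50. Psmd13, a non-ATPase subunit, read 8.36 and 6.69 in MPPs and 8.91 and 8.62 in GMPs. Psma6, whose promoter is shown above, read 10.54 and 9.06 in MPPs and 10.87 and 10.63 in GMPs. At the other end of the list, Psme4, an alternative activator, read 7.70 and 7.82 in MPPs.

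Genes of the mitochondrial respiratory chain and the ATP synthase had medians below 0 too. Protein-coding genes that span 5 to 10 kb, with a mean MPP signal of at least 8, had a median of -0.24. Of these, 9.87% were greater than 2-fold lower. The median spans are 7.13 kb for the ATP synthase, 7.80 kb for complex I and 5.985 kb for complexes II to IV. Their shares lower were 41.2%, 22.9% and 22.6%, and the lists were not matched for signal. The ATP synthase makes ATP from the proton gradient that the respiratory complexes build. Of its 17 measured genes, 7 were greater than 2-fold lower, 15 had a lower value and the median was -0.67, against -0.09 in GMPs. Atp5d, a subunit of the central stalk, read 10.63 in WT MPPs, 8.45 in Bcl11a-/- MPPs, 11.23 in WT GMPs and 11.25 in Bcl11a-/- GMPs. The genes Atp5g1, Atp5g2 and Atp5g3, which encode the membrane ring of the synthase, were 3.08-fold, 3.43-fold and 2.35-fold lower. Not every subunit went the same way, since Atp5md read 9.63 and 10.08 in MPPs.

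Of 35 genes of complex I, 8 were greater than 2-fold lower, 28 had a lower value and the median was -0.40. Ndufs3, a core subunit, read 9.70 in WT MPPs and 7.71 in Bcl11a-/- MPPs and 9.45 and 9.40 in GMPs, whereas Ndufa1 read 9.79 and 10.32 in MPPs. Of 31 genes of complexes II to IV, 7 were lower and the median was -0.32. Within these, the 8 genes named Uqcr, of complex III, had a median of -1.05 with 4 greater than 2-fold lower, and the 17 Cox genes, of complex IV, had a median of -0.05 with 2 lower. Complex III genes were thus lower as a set, whereas Cox4i1 and Cox6a2 were the only Cox genes greater than 2-fold lower. Uqcr10 read 11.59 and 10.23 in MPPs and 11.88 and 11.78 in GMPs. The tricarboxylic acid cycle feeds electrons to these complexes, and 2 of its 22 genes were lower, Sdhc and Mdh2, with a median of -0.43. Mdh2, malate dehydrogenase, read 11.78 and 10.55 in MPPs and 12.17 and 12.37 in GMPs. Glycolysis genes differed less, with a median of -0.07 over 20 genes and 1 lower gene, Tpi1, which read 8.83 and 7.74 in MPPs and 10.08 on both GMP arrays.

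The mitochondrial ribosome, which makes the respiratory subunits encoded in mitochondrial DNA, had 11 of 77 genes greater than 2-fold lower, none higher and a median of -0.39. The Bcl11a-/- MPP array was the lowest for 64 of the 77, and also for 49 of 76 mitosis genes. Mrps18c read 9.61 in WT MPPs, 7.32 in Bcl11a-/- MPPs, 9.96 in WT GMPs and 9.83 in Bcl11a-/- GMPs, and Mrps35 read 7.25, 5.35, 8.10 and 8.03. Mitochondrial import had 4 of 30 genes lower and a median of -0.32. The median spans of these lists are 7.75 kb for the mitochondrial ribosome and 9.14 kb for import. Their shares lower were 14.3% and 13.3%. Protein-coding genes that span 5 to 10 kb, with a mean MPP signal of at least 8, had 9.87% lower and a median of -0.24. Tomm5, a small subunit of the outer membrane pore, read 8.96 and 6.47 in MPPs and 10.28 and 10.09 in GMPs, a difference of -2.49 in MPPs.

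Genes for cytosolic protein synthesis also had medians below 0. Protein-coding genes with a mean MPP signal of at least 8 had a median of -0.27 under 5 kb of span and -0.21 from 10 to 20 kb. Cytosolic ribosome and translation factor genes have median spans of 3.22 and 17.6 kb. Of 62 cytosolic ribosomal protein genes, 10 were greater than 2-fold lower and 48 had a lower value, with a median of -0.35 in MPPs and 0.02 in GMPs. Fau, which encodes a ribosomal protein fused to a ubiquitin-like peptide, read 12.01 in WT MPPs, 9.84 in Bcl11a-/- MPPs, 12.04 in WT GMPs and 11.97 in Bcl11a-/- GMPs. Ribosomal protein genes have many near-identical copies in the genome, and probe sets of Rpl9 gave differences from -2.18 to -0.23, so that their values are uncertain. Of 64 translation factor genes, 10 were lower and the median was -0.22. The 11 genes of the initiation factor Eif3 were all of lower value, with a median of -0.84 and 4 greater than 2-fold lower. Eif3e read 9.83 and 8.52 in MPPs and 10.20 and 10.24 in GMPs, and the elongation factor gene Eef1b2 read 11.67 and 9.78 in MPPs and 11.69 and 11.73 in GMPs. Eef1a1, the brightest gene of the list and also an elongation factor, read 12.93 and 12.88 in MPPs. Of 21 genes of aminoacyl-tRNA synthetases and their partners, 3 were lower (Aimp1, Kars and Gars) with a median of -0.22.

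RNA synthesis and processing genes had medians below 0 as well. Protein-coding genes that span 10 to 20 kb, with a mean MPP signal of at least 8, had a median of -0.21. Core spliceosome and RNA polymerase genes have median spans of 13.4 and 16.1 kb, and their medians were close to that value. Of 54 core spliceosome genes, 6 were greater than 2-fold lower and the median was -0.23. Lsm7 and Lsm3, subunits of a ring that binds the U6 RNA, were 4.64-fold and 4.39-fold lower, at 10.22 and 8.01 for Lsm7 and 9.28 and 7.15 for Lsm3, while Lsm2 of the same ring read 10.70 and 11.05. Of 42 RNA polymerase and general factor genes, 6 were lower and the median was -0.20. Polr2f, a subunit shared by the nuclear polymerases, read 8.67 and 6.72 in MPPs and 9.01 and 9.07 in GMPs, and Polr2a, the catalytic subunit of polymerase II, read 9.16 and 9.54 in MPPs. Of 30 genes of the nucleolus and ribosome assembly, 5 were lower, with a median of -0.28. Mrto4, an assembly factor of the large ribosomal subunit, read 9.19 and 6.90 in MPPs and 9.48 and 9.53 in GMPs. Npm1, an abundant nucleolar protein, read 11.13 and 11.23 in MPPs and so did not share this difference. None of the 26 nuclear pore genes differed greater than 2-fold, and their median was -0.09.

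Genes of detoxification, protein folding and organelles held single large differences. The glutathione, peroxiredoxin and thioredoxin list held 6 lower genes of 64, with a median of -0.06 over all of them and -0.32 over the 43 with a signal of at least 6. They were Gstp1, the microsomal transferases Mgst1, Mgst2 and Mgst3, the mitochondrial thioredoxin gene Txn2 and the glutaredoxin gene Glrx. Gstp1, a cytosolic glutathione transferase, read 11.38 in WT MPPs, 8.13 in Bcl11a-/- MPPs, 11.74 in WT GMPs and 11.96 in Bcl11a-/- GMPs. Mgst2 read 8.01 and 6.48 in MPPs and 9.57 and 8.91 in GMPs. Of 92 chaperonin and heat shock genes, 4 were lower and 1 was higher, with a median of -0.11. Dnajb6 was the higher gene, at 6.64 and 7.88 in MPPs and 6.89 and 6.70 in GMPs. Of 46 vacuolar ATPase and lysosome genes, 3 were lower, namely the proton pump subunits Atp6v1f and Atp6v1e1 and the cathepsin Ctsz, and Atp6v1f read 10.10 and 8.27 in MPPs and 9.74 and 9.77 in GMPs. The endoplasmic reticulum list had 1 lower gene of 41 (Ost4, median -0.29), the cholesterol synthesis list 1 of 22 (Msmo1, median -0.03) and the ubiquitin-conjugating enzymes 1 of 35 (Ube2s, median -0.07). Actin and myosin genes had 2 lower (Cnn3 and Myl6) and 1 higher (Myh10) of 46, with a median of -0.11. Myl6, a light chain of nonmuscle myosin, read 11.08 and 9.27 in MPPs and 11.78 and 11.67 in GMPs.

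Over all lists of cell machinery together, 112 of 915 genes were greater than 2-fold lower (12.2%) and 2 were higher, with a median of -0.25 in MPPs and -0.02 in GMPs. Of the 915 genes, 827 had a signal of at least 6. Among genes with a signal of at least 6 that are on none of these lists, 258 of 8977 were lower (2.87%). The sets were not matched for signal level or for span in the genome. No cell machinery list had a GMP median farther than 0.104 from 0.

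**Figure D2:**
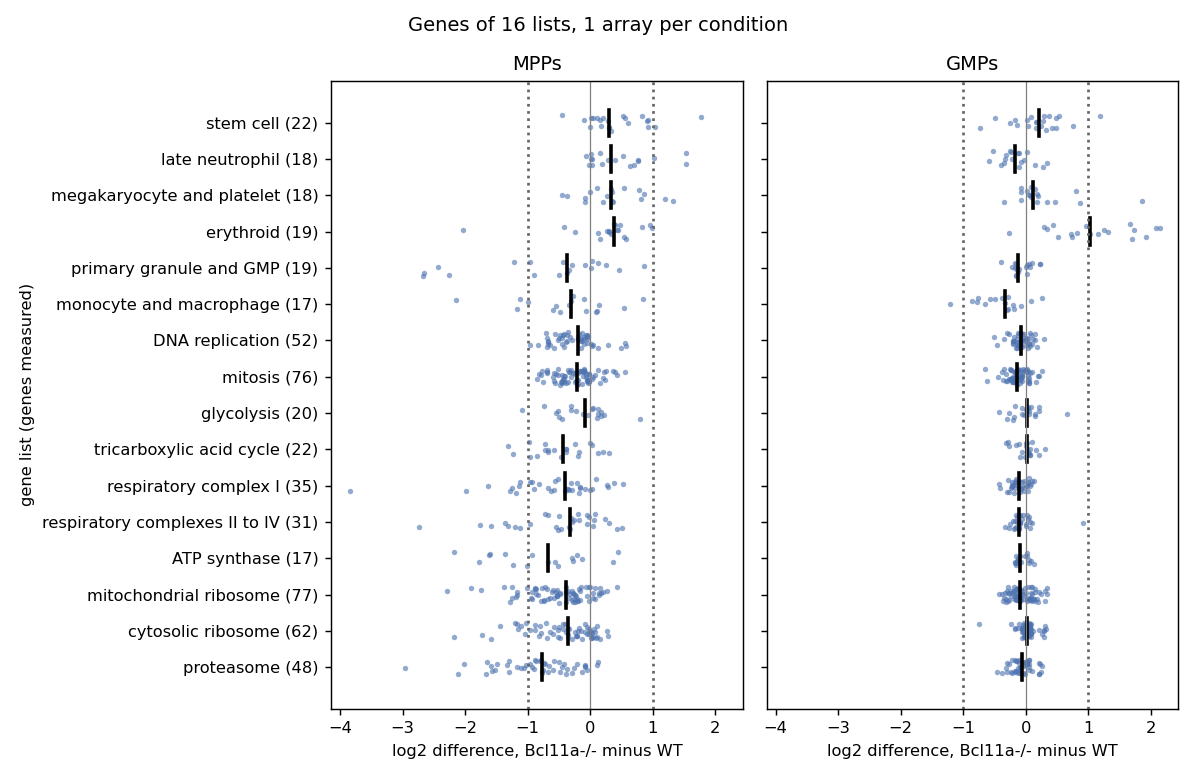
Log2 difference, Bcl11a-/- minus WT, of each measured gene of 16 lists in MPPs (left) and GMPs (right), 1 array per condition. Points are genes, black bars are list medians and dotted lines mark 2-fold; the proteasome median is -0.77 in MPPs and -0.06 in GMPs, and the erythroid median is 0.39 in MPPs and 1.03 in GMPs.

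The differences in MPPs went with the signal level and with the length of the gene in the genome. Among protein-coding genes, the share greater than 2-fold lower was 0.146% where the mean MPP signal was under 4, 2.62% between 6 and 8, and 11.3% at 10 or more. The median difference went from 0.11 to -0.03 and -0.21 over the same ranges. Among genes with a mean MPP signal of at least 8, the median was -0.27 for the 425 genes that span under 5 kb and 0.06 for the 401 genes that span 80 kb or more, and the share lower was 15.1% and 1.25%. Short bright genes were thus the most often lower. In GMPs the medians stayed between -0.05 and -0.02 in every range of span. Spearman's rho across 2832 genes between span and difference was 0.29 in MPPs and 0.011 in GMPs, as a description with no test, since genes share the same arrays. Many machinery lists hold bright and short genes, with a median span of 3.22 kb for the cytosolic ribosome, 7.13 kb for the ATP synthase and 11.9 kb for the proteasome. After the difference was centered on a smooth curve over signal, the proteasome median was -0.66, that of the ATP synthase -0.50 and that of the cytosolic ribosome -0.17, and after centering over span they were -0.71, -0.61 and -0.29. With renewed quantile normalization of the MPP arrays they were -0.63, -0.36 and -0.20, with 5 ATP synthase genes greater than 2-fold lower in place of 7, and with the brightest probe set of each gene the cytosolic ribosome median was -0.19. The part of signal level and span in the difference between the genotypes was not tested.

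**Figure D3:**
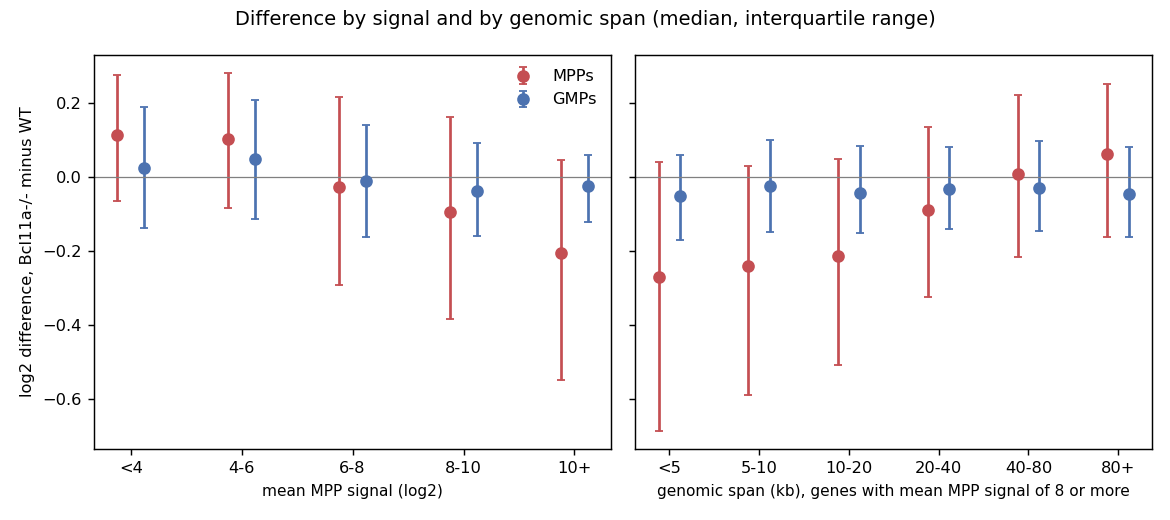
Median log2 difference, Bcl11a-/- minus WT, by mean MPP signal (left, protein-coding genes) and by genomic span in kb (right, genes with a mean MPP signal of 8 or more), in MPPs (red) and GMPs (blue). Bars give the interquartile range over genes; the MPP median rises from -0.27 to 0.06 with span while the GMP medians stay between -0.05 and -0.02.

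The myeloid lists parted in direction. Primary granule genes, which granulocyte-macrophage progenitors express, had 5 of 19 greater than 2-fold lower, none higher, and a median of -0.37 in MPPs and -0.13 in GMPs. Elane, neutrophil elastase, read 10.98 in WT MPPs, 8.54 in Bcl11a-/- MPPs, 12.64 in WT GMPs and 12.47 in Bcl11a-/- GMPs. Ctsg, cathepsin G, read 10.48, 8.22, 12.86 and 12.93 in the same order, and Nkg7, a granule membrane protein, read 10.53, 9.31, 11.84 and 11.68. Together with Prtn3 (11.34 and 8.69 in MPPs) and Ms4a3 (9.18 and 6.50), these made up the lower genes, each bright in WT MPPs and brighter still in GMPs. Other genes of the same list did not share the difference, since Mpo, myeloperoxidase, read 11.84 and 11.34 in MPPs and Cebpe, a transcription factor of granulocyte maturation, read 7.53 and 8.40. The median signal of the list went from 9.05 to 8.52 in MPPs.

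Genes of late neutrophil maturation, in contrast, had 3 of 18 greater than 2-fold higher, 16 with a higher value and a median of 0.34 in MPPs and -0.17 in GMPs. Among all genes with a signal of at least 6, 4471 of 9804 had a higher value in Bcl11a-/- MPPs. Mmp8, neutrophil collagenase, read 8.95 in WT MPPs, 10.49 in Bcl11a-/- MPPs, 8.99 in WT GMPs and 9.33 in Bcl11a-/- GMPs. Chil3, a secreted chitinase-like protein, read 8.86, 10.39, 10.72 and 10.38, and Cxcr2, a chemokine receptor of neutrophils, read 8.82, 9.84, 8.63 and 8.51. These 3 genes were 2.90-fold, 2.89-fold and 2.02-fold higher in Bcl11a-/- MPPs and lay within 1.5-fold in GMPs. S100a8, an abundant calcium-binding protein of neutrophils, read 13.03 and 12.97 in MPPs and 12.92 in Bcl11a-/- GMPs. Transcripts of mature neutrophils were therefore bright on all arrays, the lineage-negative MPPs included, with list medians of 9.58 and 10.26 in MPPs and 10.06 and 10.02 in GMPs. Which cells in the sort carried these transcripts was not tested.

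Monocyte and macrophage genes had 3 of 17 lower, none higher and a median of -0.30 in MPPs and -0.33 in GMPs. Ly86, a secreted partner of the Toll-like receptor relative RP105, read 8.40 in WT MPPs, 6.25 in Bcl11a-/- MPPs, 9.35 in WT GMPs and 8.13 in Bcl11a-/- GMPs, and was greater than 2-fold lower in both populations. F13a1, a clotting factor subunit of monocytes, read 8.09 and 6.93 in MPPs and 9.26 and 9.05 in GMPs. Ms4a6c read 9.01 and 7.88 in MPPs and 9.02 and 8.15 in GMPs. Cybb, a subunit of the phagocyte oxidase, lay in the other direction at 8.13 and 8.97 in MPPs. Mast cell, basophil and eosinophil genes had 1 of 17 lower, Prg2, eosinophil major basic protein, which read 10.47 and 9.17 in MPPs and 11.87 and 11.15 in GMPs, and their median was 0.14.

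**Figure D4:**
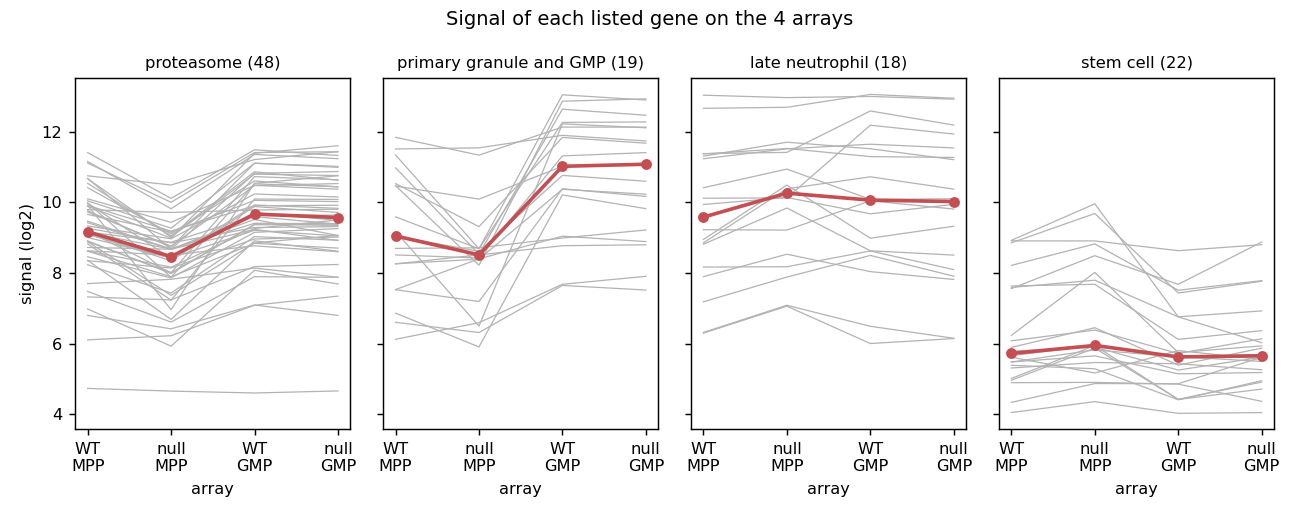
Log2 signal of every measured gene of 4 lists on the 4 arrays, where null stands for Bcl11a-/- and each gray line is a gene, with the list median in red. Proteasome and primary granule medians are lowest in Bcl11a-/- MPPs, at 8.47 and 8.52, and the late neutrophil median is highest there, at 10.26.

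Genes of stem cells and of the megakaryocyte and erythroid lineages leaned higher. Over all genes, 11092 of 19938 had a higher value in Bcl11a-/- MPPs. Protein-coding genes with a mean MPP signal of 4 to 6 had a median difference of 0.10. The Bcl11a-/- MPP array was the highest for 32 of 56 chemokine and chemokine receptor genes and 29 of 55 Wnt pathway genes. It was the highest for 7 of 76 mitosis genes. Of 22 stem cell genes, 2 were greater than 2-fold higher, none was lower, 19 had a higher value and 17 had their highest signal in Bcl11a-/- MPPs, with a median of 0.31 in MPPs and 0.22 in GMPs. Mycn, a Myc family factor active in stem cells, read 6.24 in WT MPPs, 8.02 in Bcl11a-/- MPPs, 5.75 in WT GMPs and 5.94 in Bcl11a-/- GMPs. Rbpms, an RNA-binding protein, read 8.93, 9.96, 6.76 and 6.93. Gata2, a transcription factor of stem and mast cells, read 7.56, 8.49, 7.68 and 8.88, which is short of 2-fold in MPPs and past it in GMPs. Angpt1, the ligand of the receptor Tie2, read 8.86 and 9.69 in MPPs. Only 10 of the 22 genes had a signal of at least 6, and their median was 0.58. A dim gene can reach that signal on 1 MPP array alone, so that the filter can favor genes with a difference. The 43 Hox, Meis and Pbx genes, many of which pattern stem and progenitor cells, held none beyond 2-fold, with a median of 0.07.

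Of 18 megakaryocyte and platelet genes, 2 were greater than 2-fold higher, 13 had a higher value and the median was 0.34 in MPPs and 0.12 in GMPs. Thbs1, thrombospondin of platelet granules, read 6.77 in WT MPPs, 8.10 in Bcl11a-/- MPPs, 6.43 in WT GMPs and 6.77 in Bcl11a-/- GMPs. Pf4, platelet factor 4, read 4.85, 6.05, 7.94 and 7.59. The value of Pf4 in Bcl11a-/- MPPs was thus still below both GMP arrays. Of 19 erythroid genes, 16 had a higher value and none was greater than 2-fold higher, with a median of 0.39 in MPPs, while in GMPs 10 of the 19 were greater than 2-fold higher with a median of 1.03. Car2, a carbonic anhydrase, read 9.73 and 10.69 in MPPs and 8.28 and 9.61 in GMPs, and Car1, the brightest of the list, read 12.20 and 12.54 in MPPs and 10.38 and 12.46 in GMPs. Whether the erythroid difference is larger in GMPs than in MPPs was not tested. Heme synthesis genes were divided, with Tmem14c and Alad greater than 2-fold lower of 11 and a median of 0.24. Alad, an early enzyme of the pathway, read 9.52 and 8.36 in MPPs, whereas Cpox, a later enzyme, read 7.36 and 8.32. Among 5 globin genes, only Hba-x passed 2-fold, and the epsilon-like gene Hbb-y read 4.77 and 5.17 in MPPs and 4.31 and 5.45 in GMPs, dim on all arrays.

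Lists of other mature cells that a sort could hold differed in their counts. Of 29 T and NK lineage genes, Klrd1 and Cd3d were higher and Lef1 was lower, with a median of 0.05 over all and -0.47 over the 9 with a signal of at least 6. Lef1, a transcription factor of early lymphocytes, read 7.50 in WT MPPs, 5.94 in Bcl11a-/- MPPs, 5.62 in WT GMPs and 5.43 in Bcl11a-/- GMPs. WT MPPs alone were high for Lef1. Cd3d, a T cell receptor subunit, read 5.23 and 6.29 in MPPs. Klrd1 stayed under a signal of 6 on both MPP arrays. With signals under 5 set to 5, only 1 gene of the T and NK list was higher. Of 17 mature B and plasma cell genes, 5 were lower with a median of -0.30, and of the 7 with a signal of at least 6, 4 were lower with a median of -1.21. Among the lower genes, Cd22, an inhibitory receptor of B cells, read 6.33 and 5.12 in MPPs. Lef1, Cd3d and Cd22 each reached a signal of 6 on 1 MPP array alone. The filter can thus favor genes with a difference, and the filtered medians of both lists carry that limit. Of 20 stroma and endothelium genes, only Bgn was higher, at 4.97 and 5.97, and the median was 0.09.

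Genes of surface receptors and signaling were mostly within 2-fold. Of 39 cytokine receptor genes, 3 were lower and 1 higher, with a median of 0.04. Beside Flt3 and Il7r, the lower gene was Il10rb, the shared chain of interleukin-10 family receptors, which read 7.56 in WT MPPs, 6.35 in Bcl11a-/- MPPs, 7.12 in WT GMPs and 7.27 in Bcl11a-/- GMPs. Of 56 chemokine and chemokine receptor genes, 3 were lower and 4 were higher, with a median of 0.14. Ccl3, an inflammatory chemokine, read 9.70, 7.56, 10.62 and 9.45 in the same order, and Ccl9 read 9.74, 8.05, 9.54 and 9.29. Ccl3 was greater than 2-fold lower in GMPs as well, and Ccl9 was not. Cxcl9, an interferon-induced ligand of Cxcr3, read 7.81 and 9.21 in MPPs, and Cxcr3 itself read 5.47 and 6.52. Of 28 tetraspanin genes, which encode small membrane organizers, Cd63 was higher at 9.71 and 11.66, and the median was -0.22. No gene of 29 integrins and selectins (median 0.10), of 51 in MAP kinase feedback (median 0.02), of 26 JAK, STAT and SOCS genes (median 0.14) or of 23 NF-kappaB genes (median -0.10) passed 2-fold.

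Developmental pathways held single differences. Of 28 Notch pathway genes, only Psenen was beyond 2-fold, with a list median of 0.15. Psenen, a small subunit of gamma-secretase, read 10.24 in WT MPPs, 8.58 in Bcl11a-/- MPPs, 10.44 in WT GMPs and 10.35 in Bcl11a-/- GMPs, so that the Bcl11a-/- MPP array alone was low. Of 55 Wnt pathway genes, Lef1 was lower and Fzd8 was higher, from 4.72 to 5.88, with a median of 0.10. Of 47 TGF-beta and BMP pathway genes, Id2 was higher and Id3 was lower, with a median of 0.16. Id2 and Id3 encode inhibitors of basic helix-loop-helix factors. Id2 read 6.18 and 7.34 in MPPs and 7.15 and 6.62 in GMPs, and Id3 read 6.31 and 5.31 in MPPs and 5.18 and 5.31 in GMPs. The paired inhibitors thus lay in opposite directions in MPPs.

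Interferon-inducible genes were split, with 5 of 63 lower, 2 higher and a median of -0.12. Bst2, tetherin, read 9.65 in WT MPPs, 7.86 in Bcl11a-/- MPPs, 9.44 in WT GMPs and 9.55 in Bcl11a-/- GMPs. Ifi209 read 7.42, 5.05, 8.24 and 5.93, greater than 2-fold lower in both populations, whereas Iigp1, an immunity-related GTPase, was higher in both at 7.99, 9.21, 6.92 and 7.97. Members of the Ifi200 cluster are similar in sequence, and probe sets may not separate them. Of 15 genes of MHC class I presentation, the lower ones were the proteasome genes Psme1, Psme2 and Psmb10, and the median was -0.37. B2m, the light chain of MHC class I, read 12.52 and 12.67 in MPPs. Of 26 immediate early genes, Hspa1a was lower, and the median was -0.18 in MPPs and -0.37 in GMPs. Hspa1a, an inducible heat shock protein, read 8.69 and 7.29 in MPPs and 9.01 and 7.11 in GMPs.

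No gene of the DNA replication and mitosis lists passed 2-fold. Of 52 DNA replication genes, 44 had a lower value in Bcl11a-/- MPPs, with a median of -0.19 against -0.08 in GMPs, and of 76 mitosis genes 63 had a lower value, with a median of -0.21 against -0.14. The median over all protein-coding genes with a mean MPP signal of 8 to 10 was -0.10, and with renewed quantile normalization the mitosis median was -0.07. Pcna, the sliding clamp, read 11.60 and 11.18 in MPPs, and Cdc20, an activator of the anaphase-promoting complex, read 8.77 and 7.92. Of 29 genes of G1 cyclins, kinases and inhibitors, none was beyond 2-fold, and Ccnd2, a D-type cyclin, read 11.28 and 10.60. Of 31 histone genes, 4 were lower with a median of 0.07, which was -0.21 over the 22 with a signal of at least 6. H2ac4 read 7.65 in WT MPPs, 4.83 in Bcl11a-/- MPPs, 8.82 in WT GMPs and 8.07 in Bcl11a-/- GMPs, and H4c4 read 11.68, 10.29, 12.69 and 12.64. Histone genes of a type are nearly identical, and a probe set may read several copies. None of 30 p53 pathway genes (median 0.08) or 20 BCL2 family genes (median -0.04) passed 2-fold. Phlda3, a p53 target, came closest among the former, with a difference of 0.99 from a WT MPP signal of 6.02.

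Lists of chromatin regulators held few genes beyond 2-fold. Of 21 genes of NuRD and of Bcl11a partners, none passed 2-fold in MPPs and the median was -0.10. In GMPs 1 of them was greater than 2-fold higher. Zfpm1, a cofactor of Gata1, read 7.36 in WT MPPs, 8.19 in Bcl11a-/- MPPs, 6.53 in WT GMPs and 7.50 in Bcl11a-/- GMPs, and Kdm1a, a histone demethylase, read 9.12, 8.63, 8.63 and 8.35. Of 38 genes of SWI/SNF and other remodelers, none passed 2-fold (median -0.01), and of 27 Polycomb genes only Pcgf1 did, at 7.01 and 5.61 in MPPs. Of 48 lymphoid and myeloid transcription factors, Mycn and Id2 were higher and Spib, Ikzf3 and Id3 were lower, with a median of -0.06. Spib, an Ets family factor of B cells and plasmacytoid dendritic cells, read 7.15 and 5.66 in MPPs and 6.38 and 5.33 in GMPs. Ikzf3, an Ikaros family factor of lymphocytes, read 6.01 and 4.79 in MPPs. Runx3 (9.10 and 9.97) and Ikzf2 (7.57 and 8.47), which also act in lymphocytes, were higher by less than 2-fold.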

How the data were processed

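The authors deposited log2 signals of 4 one-color arrays, 1 for each population and genotype. Per the labels and methods, RMA with quantile normalization in ArrayStar had been applied, so a uniform shift of all RNA would be removed. Gene signals still differed in spread between arrays. Their standard deviation over genes ran from 1.83 (Bcl11a-/- MPP) and 1.93 (WT MPP) to 2.01 (Bcl11a-/- GMP) and 2.04 (WT GMP). Bright genes had array medians of 8.69, 8.84, 8.93 and 8.96, listed alike. How far this spread enters the MPP differences was not tested. RNA was amplified before labeling, which can alter relative signals. The build and the probe positions are not given in the sources used here. Of 30177 table rows, 21789 probe sets carried 1 gene symbol in the platform annotation and gave 19938 genes, 1621 carried several and 6767 rows had no name here. Differences, counts over 2-fold, medians and figures were computed in Python 3.11.15 (pandas 2.3.3, statsmodels 0.14.6 for lowess with span 0.3), and the counting was tested on simulated data. Genomic spans and promoters came from RefSeq, with spans matched for 19856 genes by Entrez identifier. The members and the 58 gene lists were chosen with earlier results of these data known. Named genes were Bcl11a, Flt3, Il7r, the sort markers, the 20 largest differences each way with a signal of at least 6 (without predicted genes, clone names, olfactory and vomeronasal receptors, small RNAs, pseudogenes and antigen receptor segments), up to 4 per list and direction, each list's brightest gene, any list gene over 2-fold and any member of a list of up to 12. Alternatives were a signal filter, a floor at 5, lowess and median centering, renewed quantile normalization, the brightest probe set, counts per probe set and thresholds of 1.5-fold and 3-fold. The signal filter took genes at 6 or more on either MPP array, so that a dim gene could pass on 1 array alone.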

Additional observations from a re-analysis of the deposited data

Results flagged for a closer look

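Cldn13, which encodes a claudin, was beyond 2-fold in opposite directions in the populations. Its log2 difference was -1.05 in MPPs (7.84 in WT and 6.79 in Bcl11a-/-) and 1.75 in GMPs (5.77 and 7.52), and the difference between these effects was not tested.

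Rows outside the gene comparison also differed. Of the 6767 rows that are unnamed here, 289 were greater than 2-fold lower and 237 higher in Bcl11a-/- MPPs, against 43 and 35 in GMPs. Of 1621 probe sets that carry several gene symbols, 83 were lower and 13 higher in MPPs, against 13 and 0 in GMPs.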

How the results depend on the processing

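No paired analysis was possible because each condition has 1 array and no difference comes from a test. The count of higher genes, 181, became 120 with only signals of at least 6 and 120 with signals under 5 set to 5, and 1033 and 25 at thresholds of 1.5-fold and 3-fold. The count of lower genes, 402, became 618 per annotated probe set, and 1368 and 96 at 1.5-fold and 3-fold. Under the other alternatives the counts stayed within 1.5 times the main value, from 145 to 247 for higher genes and from 339 to 463 for lower genes. No named gene changed direction, and from 4 (median centering) to 33 (renewed quantile normalization) named genes no longer passed 2-fold. No list with a median of at least 0.25 in size changed sign, whereas 16 lists with smaller medians did under some alternative, among them T and NK lineage (from 0.05 to -0.47) and histone (from 0.07 to -0.21) with only signals of at least 6. With renewed quantile normalization, genes greater than 2-fold lower went from 10 to 4 for the cytosolic ribosome, 6 to 3 for core spliceosome and for RNA polymerase, 5 to 3 for nucleolus, 4 to 2 for mitochondrial import and 3 to 1 for MHC class I. Lowess centering on signal gave 6 for the cytosolic ribosome, 3 for core spliceosome and 1 for MHC class I, and centering on span gave 1 for mitochondrial import. Median centering raised the tricarboxylic acid cycle count from 2 to 4. The proteasome count stayed between 14 and 17. Centering on genomic span was added after the data were seen. List medians moved by over 0.1 for 21 of 58 lists under renewed quantile normalization, and the cause was not tested.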

Other observations

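The ferritin genes Ftl1 and Fth1, chosen after their values were seen, store iron. Ftl1, the ferritin light chain, read 9.70 in WT MPPs, 7.49 in Bcl11a-/- MPPs, 11.97 in WT GMPs and 12.05 in Bcl11a-/- GMPs. Fth1, the heavy chain, read 11.74, 10.02, 11.98 and 12.14 in the same order. Both were greater than 2-fold lower in Bcl11a-/- MPPs, at 4.63-fold and 3.28-fold, and the Bcl11a-/- MPP array was the lowest for each.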
